A study of Mus musculus with 24 samples.

Results

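The genes described here are 10 components of the myostatin and insulin-like growth factor (IGF) pathways that set muscle size, read by gene symbol from a table of 47643 genes. All 10 members, Mstn, Fst, Fstl1, Acvr2b, Igf1, Igf2, Igf1r, Igf2r, Igfbp4 and Igfbp5, matched 1 Ensembl gene each. They were measured in plantaris, a fast hindlimb muscle, of wild type C57BL/6 mice that breathed normal air (11 samples) or were exposed to tobacco smoke for 16 weeks (13 samples). The counts came from 3′-end RNA sequencing, in which a transcript gives reads near its poly(A) tail, so that levels are not divided by gene length. The labels give no age or sex, name no transgene or drug, and do not say that each sample is a separate animal. The p-values therefore measure only the spread between these samples, which may be technical.

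Myostatin, encoded by Mstn, is a secreted ligand of the TGF-β family that restrains muscle growth. It acts through the activin type II receptor Acvr2b and the Smad proteins, and is held inactive by follistatin (Fst). IGF1 acts in the opposite direction: through its receptor Igf1r it drives the PI3K, AKT and mTOR cascade of protein synthesis and restrains the FOXO factors that turn on atrophy genes. Igf2r clears IGF2 from the cell surface, and Igfbp4 and Igfbp5 are binding proteins that hold IGFs outside the cell. The series title concerns chronic activity of the aryl hydrocarbon receptor (AhR), a transcription factor activated by components of smoke, and impairment of muscle. The comparison asks whether transcripts of these opposing pathways differed after smoke.

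Promoters of 4 members are shown first: Mstn, which names the pathway, and Acvr2b, Igf1r and Igf2r, whose windows hold the core motif of the AhR. Each runs 5′ to 3′ on the strand of the gene and holds the 250 bases before the RefSeq start site (GRCm38.p6), or for Acvr2b the 190 of them that lie before its first GENCODE exon. Capitals mark the AhR core GCGTG or its reverse complement CACGC and, in Igf2r, also the E-box CACGTG, bound by clock and MYC family factors.
Mstn (chr1:53061390-53061639, plus strand): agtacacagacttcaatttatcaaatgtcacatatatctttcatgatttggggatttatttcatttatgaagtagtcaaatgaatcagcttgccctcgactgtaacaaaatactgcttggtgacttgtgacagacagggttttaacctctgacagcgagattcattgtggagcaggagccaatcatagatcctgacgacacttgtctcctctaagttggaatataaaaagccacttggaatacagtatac
Acvr2b (chr9:119401928-119402117, plus strand): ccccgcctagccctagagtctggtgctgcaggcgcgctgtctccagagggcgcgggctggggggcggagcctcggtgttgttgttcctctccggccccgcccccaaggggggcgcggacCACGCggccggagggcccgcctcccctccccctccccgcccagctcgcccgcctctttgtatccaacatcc
Igf1r (chr7:67952007-67952256, plus strand): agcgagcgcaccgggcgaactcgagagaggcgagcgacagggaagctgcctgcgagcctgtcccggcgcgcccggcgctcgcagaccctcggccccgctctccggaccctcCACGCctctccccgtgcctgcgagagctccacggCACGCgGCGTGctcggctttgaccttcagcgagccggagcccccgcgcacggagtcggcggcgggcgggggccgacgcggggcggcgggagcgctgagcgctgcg
Igf2r (chr17:12769707-12769956, minus strand): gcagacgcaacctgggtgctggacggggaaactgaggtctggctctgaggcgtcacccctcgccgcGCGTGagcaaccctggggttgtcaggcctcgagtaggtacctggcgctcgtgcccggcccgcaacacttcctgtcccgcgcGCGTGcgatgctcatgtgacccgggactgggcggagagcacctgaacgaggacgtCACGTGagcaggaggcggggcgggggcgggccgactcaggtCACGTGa

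Mstn held no core. Acvr2b held 1, on the reverse strand, starting 131 bases before its start site, Igf1r held 3, and Igf2r held 2 cores and 2 E-boxes. Of the 9 members with an entry in the promoter table, 4 had a core on either strand. By window this was 4 of the members' 12, since Igf2 has several start sites, near the 28.2% of all 32851 windows of this length. The fourth was Igf1, with 1 core starting 196 bases before its RefSeq start, in a window that lies within an annotated Igf1 exon and is not printed. The E-box was in 1 member's window, that of Igf2r, and in 6.02% of all windows. The D-box-like TTANNTAA, the forkhead motif GTAAACA and the Smad motif GTCTAGAC were in 0 members' windows, against 5.43%, 3.17% and 0.167% of all windows. All motifs were searched on both strands, and none of the matches marked above overlapped a match of another motif. A match describes letters in a window, not a bound site.

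Total counts per sample ranged from 2515697 to 4528845, and a two-sided permutation test of log2 totals between groups gave p = 0.686. Levels are given in CPM (counts per 1000000 counts, on libraries scaled by TMM). Summed markers of the fast fibre list (Myh4, Myh1, Myh2, Acta1, Ckm, Tnnt3 and Actn3) lay between 115704 and 180544 CPM. Acta1 and Ckm are also made in slow fibres, so this sum is not of fast fibres alone. Summed slow fibre markers lay between 91.5 and 281 CPM. The fast myosin Myh4 had means of 39487 CPM in air and 44099 in smoke. The slow myosin Myh7 had means of 12.7 and 13.8 CPM, so the fast myosin dominated, as in a fast muscle. The first principal component of the tested genes held 14.8% of the variance, with group means that differed by 0.474 (two-sided permutation p = 0.945). Air sample 11 and smoke sample 10 stood apart on it, with scores of 38.7 and 29.0 against medians of −2.22 in air and −3.13 in smoke. Without these 2 libraries, each of the 9 tested members kept the sign of its log2 ratio and stayed short of the threshold, and 0 genes of the pathway lists below were called.

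No member passed the test of smoke against air. Of 10159 genes that passed the expression filter, 195 (1.92%) were called at a Benjamini-Hochberg adjusted p under 0.05 by edgeR's quasi-likelihood test, 74 higher (0.728%) and 121 lower (1.19%) under smoke. Of the 10 members, 9 passed the filter, all except Fst, and 0 were called, with adjusted p-values from 0.0884 to 0.861. DESeq2 and limma-voom also called 0 members, and 0 were called without the 2 libraries that stood apart. When each of the 24 samples was left out in turn, 1 member was called without air sample 1 or smoke sample 11 (Igf1) and without air sample 11 (Acvr2b). At an unadjusted p under 0.05 there were 3, Igf1, Acvr2b and Fstl1, where 15.5% of all tested genes were. The fitted log2 ratio of smoke to air was positive for 7 members and negative for 2, with a median of 0.16 against 0.0066 over all tested genes. No member had groups that did not overlap, as 0.0295% of tested genes did.

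**Figure D1:**
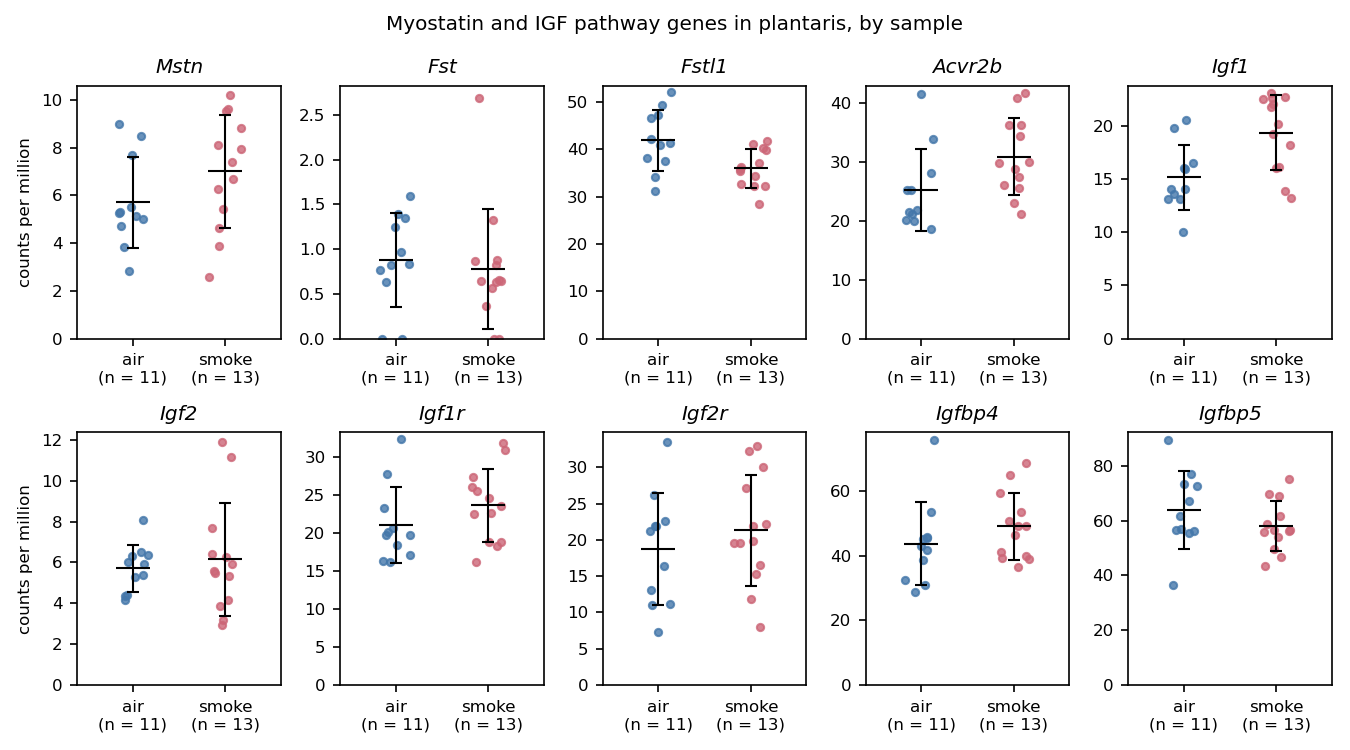
CPM in each of 11 air and 13 smoke samples (points) for the 10 genes, with the group mean and SD (horizontal bar and whiskers). Air and smoke samples overlap in every panel, and the y axes start at 0 and differ between genes.

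Mstn lies on chromosome 1 (53061640 to 53068079, plus strand, GRCm38) and overlaps no annotated gene. It was a low transcript at this depth, with 7 to 46 counts per sample. In air it ranged from 2.83 to 9.01 CPM with a median of 5.27, and in smoke from 2.56 to 10.2 CPM with a median of 7.39. Of the 13 smoke samples, 3 lay above the highest air sample and 1 below the lowest, so the groups overlapped almost throughout. The means were 5.71 ± 1.91 (SD, n = 11) and 7.01 ± 2.37 CPM (SD, n = 13), with a log2 ratio of 0.29 ± 0.19 (SE, edgeR adjusted p = 0.492). The 95% interval of the fold ran from 0.933 to 1.61. These intervals, here and below, are for 1 gene each and are not adjusted for the number of genes.

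Acvr2b, the type II receptor that myostatin and activins share, lies on chromosome 9 (119402118 to 119434995, plus strand). It ranged from 18.6 to 41.6 CPM in air (median 21.8) and from 21.1 to 41.8 CPM in smoke (median 29.9). Most air samples were low, 3 of them below the lowest smoke sample, but 1 air sample was as high as the highest smoke samples. Of the smoke samples, 11 of 13 lay above the air mean. Its log2 ratio was 0.31 ± 0.12 (SE, edgeR adjusted p = 0.195), and the interval of the fold ran from 1.04 to 1.48. Air sample 11 was the high one: without it the log2 ratio was 0.40 and Acvr2b passed the threshold (edgeR adjusted p = 0.0455), while without both libraries that stood apart it was 0.37 (edgeR adjusted p = 0.0686). Over the 24 fits that left out 1 sample each, the adjusted p of Acvr2b ranged from 0.0455 to 0.298. An annotated gene on the opposite strand, Gm47320, overlaps Acvr2b and was not analysed here.

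Among the extracellular inhibitors, Fst (chromosome 13, 114452290 to 114458951, minus strand) was close to the detection floor. It had 0 to 6 counts per air sample and 0 to 7 per smoke sample, 35 counts in all in air and 33 in smoke, and 2 samples of each group had none. The gene Gm47040 overlaps it on the opposite strand and was not analysed here. A floor of 3 counts, which covers counting error only, corresponds to 0.665 to 1.15 CPM on the scaled libraries, and the Fst means of 0.874 in air and 0.777 CPM in smoke lie about there. A two-sided permutation test on CPM gave p = 0.714, and a difference was not detectable at this depth.

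Fstl1, a secreted glycoprotein related in sequence to follistatin, was far more abundant and lies on chromosome 16 (37776873 to 37836514, plus strand, no overlapping gene). It ranged from 31.3 to 52.2 CPM in air (median 41.4) and from 28.4 to 41.8 CPM in smoke (median 35.9). All 13 smoke samples lay below the air mean, and 5 air samples were above every smoke sample, yet the lower air samples fell within the smoke range. The means were 42.0 ± 6.47 (SD, n = 11) and 36.0 ± 4.04 CPM (SD, n = 13), a log2 ratio of −0.22 ± 0.080 (SE, edgeR adjusted p = 0.143). The interval of the fold ran from 0.764 to 0.961, and without the 2 libraries that stood apart the edgeR adjusted p was 0.181. Fibroblasts are a known source of Fstl1, and 6 of 7 fibroblast markers also had a negative log2 fold change (median −0.29 over the 7). The exception was Pdgfra (0.20), and none of the 7 was called. Their summed level was 119 to 174 CPM in air and 103 to 169 CPM in smoke, and each marker had counts in every sample. Their part in the Fstl1 values was not tested, and in whole muscle fewer cells of a type and less RNA per cell cannot be told apart.

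Igf1, the growth-promoting ligand, had the smallest p-value of the 10 genes. It lies on chromosome 10 (87858265 to 87937042, plus strand) and overlaps the antisense gene Igf1os, which had 0 to 3 counts per sample. Igf1 ranged from 10.0 to 20.5 CPM in air (median 14.1) and from 13.2 to 23.1 CPM in smoke (median 20.1). Of the smoke samples, 6 lay above the highest air sample and 11 of 13 above the air mean, while 3 air samples were below every smoke sample. The means were 15.1 ± 3.06 (SD, n = 11) and 19.3 ± 3.53 CPM (SD, n = 13), and the log2 ratio was 0.36 ± 0.11 (SE, edgeR adjusted p = 0.0884). The interval of the fold ran from 1.09 to 1.51. Igf1 passed the threshold when air sample 1 was left out (log2 ratio 0.41, edgeR adjusted p = 0.0485) or smoke sample 11 (0.40, adjusted p = 0.0491). Without the 2 libraries that stood apart it was 0.34 (edgeR adjusted p = 0.125), and over the 24 fits that left out 1 sample each the adjusted p ranged from 0.0485 to 0.156.

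Igf2, the second ligand and a fetal growth factor expressed from the paternal allele, was as low as Mstn, at 8 to 38 counts per sample. It lies on chromosome 7 (142650766 to 142666816, minus strand), overlaps Gm49394 (not analysed here) and the microRNA Mir483 (0 counts) on its own strand, and overlaps Igf2os on the opposite strand, with 0 to 4 counts. In air Igf2 ranged from 4.15 to 8.08 CPM (median 5.91). In smoke it ranged from 2.93 to 11.9 CPM (median 5.61), with 4 samples below the lowest air sample and 2 above the highest. The smoke samples thus lay on both sides of the air range, and the SD was 1.16 CPM in air but reached 2.75 CPM in smoke, a gap between spreads that was not tested. The log2 ratio was 0.10 ± 0.19 (SE, edgeR adjusted p = 0.861), with an interval of the fold from 0.819 to 1.40. Leaving out 1 sample moved this ratio to between −0.0023 (without smoke sample 11) and 0.16 (without air sample 4), and without smoke sample 5 it was 0.00041.

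The receptor Igf1r, a tyrosine kinase, lies on chromosome 7 (67952827 to 68233668, plus strand, no overlapping gene). It ranged from 16.2 to 32.4 CPM in air (median 19.7) and from 16.2 to 31.9 CPM in smoke (median 23.6), nearly the same range. The highest sample of each group was air sample 11 and smoke sample 10, the 2 libraries that stood apart. The log2 ratio of Igf1r was 0.17 ± 0.12 (SE, edgeR adjusted p = 0.532), and the interval of the fold ran from 0.950 to 1.33. Without both libraries the ratio was 0.21 (edgeR adjusted p = 0.359). Over the 24 fits that left out 1 sample each it ranged from 0.13 to 0.24, the highest without air sample 11 (edgeR adjusted p = 0.263).

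Igf2r, the mannose-6-phosphate receptor that carries IGF2 to lysosomes, varied the most among the tested members in air. It lies on chromosome 17 (12682406 to 12769664, minus strand) and overlaps the antisense gene Airn, which had 23 to 48 counts per sample against 22 to 126 for Igf2r. Whether strand was used in counting is not given in the sources used here, so these values are uncertain. Igf2r ranged from 7.24 to 33.5 CPM in air (median 21.3) and from 8.05 to 32.9 CPM in smoke (median 19.8). The highest air sample was 4.62 times the lowest and the highest smoke sample 4.08 times the lowest, but both groups spanned the same range. The log2 ratio was 0.16 ± 0.19 (SE, edgeR adjusted p = 0.747), with an interval of the fold from 0.849 to 1.48. Leaving out 1 sample moved this ratio to between 0.076 (without air sample 11) and 0.28 (without air sample 10), and without air sample 2 or 8 or smoke sample 4 or 11 it was 0.11, 0.11, 0.10 and 0.096.

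The binding proteins were the most abundant members. Igfbp5 lies on chromosome 1 (72857932 to 72874884, minus strand) and Igfbp4 on chromosome 11 (99041244 to 99054392, plus strand), neither with an overlapping gene. Igfbp5 ranged from 36.6 to 89.5 CPM in air (median 61.6) and from 43.3 to 75.3 CPM in smoke (median 56.5). Of the smoke samples, 10 of 13 were below the air mean, inside the air range. Its log2 ratio was −0.15 ± 0.10 (SE, edgeR adjusted p = 0.506), and the interval of the fold ran from 0.780 to 1.04. Without air sample 10 the ratio was −0.093 (edgeR adjusted p = 0.707). Igfbp4 ranged from 28.7 to 75.8 CPM in air (median 43.0) and from 36.6 to 68.6 CPM in smoke (median 49.1), and 8 of 13 smoke samples were above the air mean. The log2 ratio was 0.16 ± 0.12 (SE, edgeR adjusted p = 0.593), and the interval of the fold ran from 0.934 to 1.33. Without air sample 1 the ratio was 0.26 (edgeR adjusted p = 0.211). The 2 binding proteins thus had fold changes of opposite sign, neither larger than the spread between samples.

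**Figure D2:**
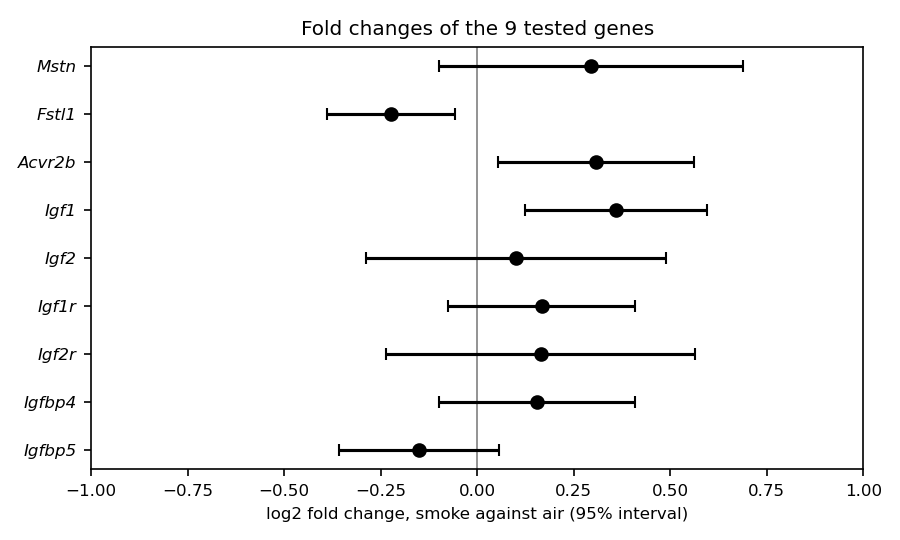
Log2 fold change of smoke against air for the 9 genes that passed the expression filter (points), with the 95% interval of each gene on its own (whiskers). The intervals of Igf1 (fold 1.09 to 1.51), Acvr2b (1.04 to 1.48) and Fstl1 (0.764 to 0.961) leave out a log2 fold change of 0, but 0 of the 9 passed after adjustment over all tested genes.

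The intervals give a range for the change of each gene on its own, from the spread between these samples. As that spread may be technical, they do not bound a change across animals, and Fst has none. No tested member's 95% interval reached a 2-fold change in either direction. Those of 2 members, Mstn and Igf1, reached a 1.5-fold change, at an upper end of 1.61 for Mstn and 1.51 for Igf1.

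In air, the mean level, in tags rather than per length, was ordered from Igfbp5 (63.9 ± 14.1 CPM, SD, n = 11), followed by Igfbp4 (43.8 ± 12.96), Fstl1 (42.0 ± 6.47), Acvr2b (25.2 ± 6.99) and Igf1r (21.1 ± 5.03). Below them came Igf2r (18.8 ± 7.74), Igf1 (15.1 ± 3.06), Igf2 (5.72 ± 1.16), Mstn (5.71 ± 1.91) and Fst (0.874 ± 0.525). Igfbp4 and Fstl1, Acvr2b and Igf1r, Igf1r and Igf2r, Igf2r and Igf1, and Igf2 and Mstn each differed by less than the larger SD of the pair. Igfbp5 ranked 1598 and Igf2 ranked 7827 among 10159 tested genes by mean level over both groups, where Igf2 stood below Mstn (7562). These are tags at 3′ ends, and a gene whose end is annotated short can be counted too low.

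Part of the spread comes from counting alone, which can be read from the mean count of each gene. For Igf2 in air, counting gives a coefficient of variation (CV) of 22.3% and the samples showed 20.2%, so that no further spread was visible. In smoke the same gene showed 44.7% where counting gives 21.8%. Igf2r showed 41.3% in air and 35.7% in smoke, where counting gives 12.1% and 11.7%. Fstl1 was the steadiest, with 15.4% in air and 11.2% in smoke against 8.24% and 9.01% from counting. Mstn showed 33.5% and 33.9% against 22.1% and 20.1%.

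The spread of Igf2r followed the first principal component of all tested genes, a relation examined after the values were seen. Pearson's r was −0.91 in air (permutation p = 3e-05, Spearman's rho −0.94, p = 8e-05) and −0.97 in smoke (permutation p = 1e-05, the smallest that 100000 resamples can give, rho −0.92, p = 4e-05). Over 24 such relations the Benjamini-Hochberg adjusted permutation p of r was 0.00036 and 0.00024, and that of rho was 0.00096 in each group. Without the 2 samples farthest from the median score, r was −0.86 in air and −0.92 in smoke. Igf2r is itself 1 of the genes from which the component was computed, and a first component is built as an axis along which many genes vary. How many of all tested genes had an r this large was not counted. These p-values, and those of the members below, thus do not set the members apart from other genes. In air the component moved with the number of genes that had a count, with r −0.76 (permutation p = 0.00325, adjusted 0.0195), rho −0.69 (permutation p = 0.0223, adjusted 0.0890) and r −0.58 without 2 samples. In smoke that r was −0.10 (permutation p = 0.751, rho −0.11, p = 0.723). With the share of counts in the most abundant gene r was 0.58 in each group (adjusted permutation p = 0.129 in air and 0.0919 in smoke), but 0.15 in air and 0.11 in smoke without 2 samples. With log2 total counts r was −0.29 in air (permutation p = 0.412, rho −0.53, p = 0.101) and −0.84 without 2 samples, and in smoke it was −0.11 (permutation p = 0.723, rho −0.12, p = 0.695). The part of these library measures in the Igf2r values was not tested.

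Mstn and Igf1r had r of opposite sign with the same component, and by ranks Mstn in air was the one relation of these 4 that passed. For Mstn, r was −0.80 in air (permutation p = 0.00238, adjusted 0.0190) with rho −0.77 (permutation p = 0.00727, adjusted 0.0436). In smoke r was −0.69 (permutation p = 0.0109, adjusted 0.0328) with rho −0.46 (permutation p = 0.115, adjusted 0.275). Without 2 samples r was −0.84 in air but −0.29 in smoke, so that the relation in smoke rested on those samples. For Igf1r, r was 0.80 in air (permutation p = 0.00461, adjusted 0.0221) with rho 0.55 (permutation p = 0.0883, adjusted 0.265). In smoke r was 0.67 (permutation p = 0.0109, adjusted 0.0328) with rho 0.55 (permutation p = 0.0550, adjusted 0.189). Without 2 samples r was 0.72 in air and 0.30 in smoke, where the relation again rested on those samples.

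For the receptor Acvr2b in air r passed (0.80, permutation p = 0.00584, adjusted 0.0234) and the ranks did not (rho 0.71, permutation p = 0.0177, adjusted 0.0848), and r was 0.46 without 2 samples. In smoke its r was 0.29 (permutation p = 0.350, adjusted 0.516) and rho 0.18 (permutation p = 0.566), and the difference between groups was not tested. For Igfbp5 in air the ranks passed, with rho −0.87 (permutation p = 0.00089, adjusted 0.00712), where r did not (−0.61, permutation p = 0.0643, and −0.82 without 2 samples). For Igf1, which had the smallest p-value against smoke, r was 0.13 in air (permutation p = 0.692, rho 0.17, p = 0.613) and 0.21 in smoke (permutation p = 0.492, rho 0.22, p = 0.472). For Fstl1, r was 0.31 in air (permutation p = 0.366, rho 0.31, p = 0.356) and 0.35 in smoke (permutation p = 0.244, rho 0.24, p = 0.425). With the component as a covariate, 0 members were called, and the edgeR adjusted p of Igf1, Acvr2b and Fstl1 was 0.0543, 0.0615 and 0.0753.

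**Figure D3:**
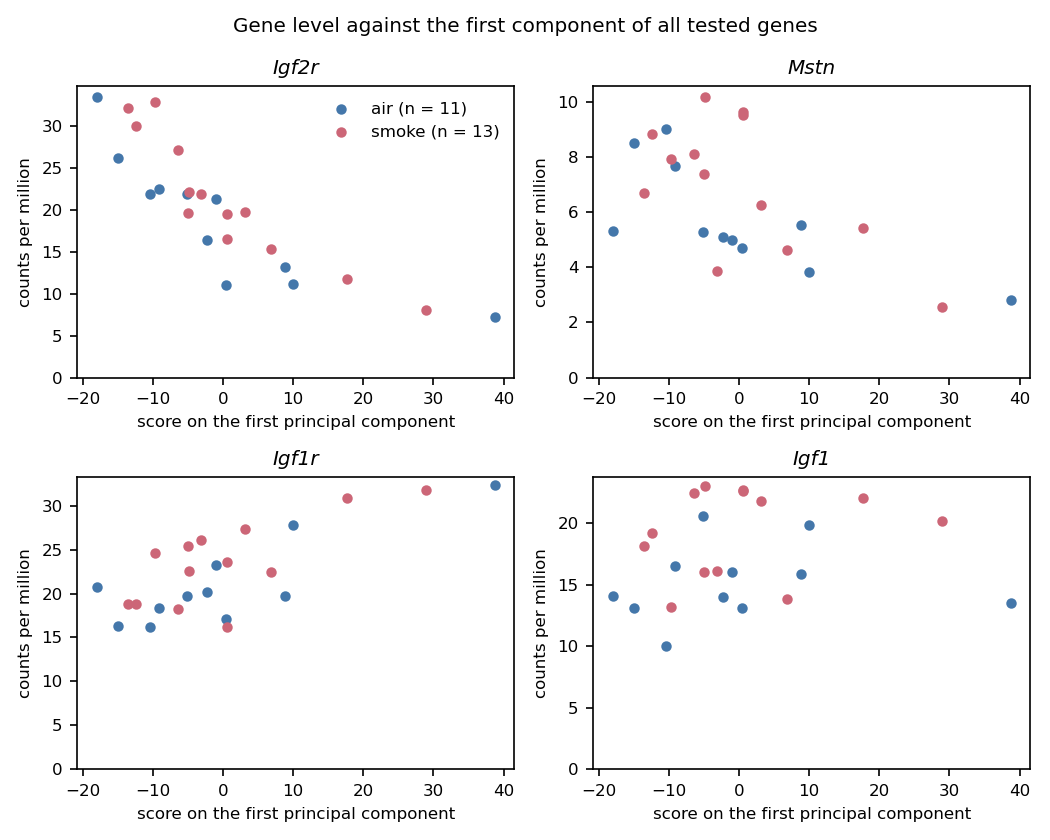
CPM of 4 genes against each sample's score on the first principal component of log2 CPM over the tested genes, for 11 air and 13 smoke samples. Igf2r decreases along the score in both groups (r −0.91 and −0.97), Mstn and Igf1r have r of opposite sign, and Igf1 has r 0.13 and 0.21; the samples at the right end are air sample 11 (38.7) and smoke sample 10 (29.0).

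Relations between ligands, receptors and binding proteins were examined for 9 pairs within each group, 18 relations in all. None passed adjustment: the Benjamini-Hochberg adjusted permutation p of r ran from 0.377 to 0.995, and 2 relations had an unadjusted p under 0.05. The first was that of the binding proteins Igfbp4 and Igfbp5 in air, with r 0.67 (permutation p = 0.0288, n = 11), rho 0.75 (permutation p = 0.0115, adjusted 0.206) and r 0.59 without 2 samples. In smoke the same pair had an r of −0.0019 (permutation p = 0.995) and a rho of 0, and the difference between groups was not tested. The second was Igf2 with its clearance receptor Igf2r in smoke, with r 0.56 (permutation p = 0.0453, n = 13), rho 0.49 (permutation p = 0.0891) and an r of 0.32 without 2 samples, on which it thus rested. Mstn with its receptor Acvr2b had r −0.58 in air (permutation p = 0.0628, rho −0.44, p = 0.183) and 0.083 in smoke (permutation p = 0.788, rho 0.29, p = 0.342). Without 2 samples these were −0.42 and 0.62, so that the value in smoke depends on those samples. The opposing ligands Mstn and Igf1 had r −0.37 in air (permutation p = 0.259, rho −0.21, p = 0.542) and 0.30 in smoke (permutation p = 0.325, rho 0.56, p = 0.0501), or −0.36 and 0.44 without 2 samples. Igf1 with its receptor Igf1r had r 0.39 in air (permutation p = 0.238, rho 0.48, p = 0.137) and −0.13 in smoke (permutation p = 0.682, rho −0.18, p = 0.553), or 0.31 and −0.15 without 2 samples. The low counts of Mstn and Igf2 limit how well any such relation can be seen.

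The genes whose levels moved most like each member across the 24 samples, after the group means were subtracted, are given as a description. For Igf2r these were Etfa, Cystm1 and Gnas, with r from 0.944 to 0.948. The closest genes of the other members had lower r. For Mstn they were Slc25a16, Pcgf3 and Psma4, led by an r of 0.77. For Igf1 the first was Cyp2e1 (r 0.71), and Gm43210 (r 0.67) was also among the first 3, beside a gene that has no symbol here. Igf1r was closest to Cyp51, Glb1l and Ptx4 (first r 0.78). Each of these genes shares its libraries and their depth with the member it resembles. Igfbp5 was closest to Sec61b, Ndfip2 and Cnep1r1 (first r 0.79), and Igfbp4 to H2-D1, Epb41l2 and Pou4f1 (first r 0.75). Acvr2b was closest to Ddx24 (r 0.74), with Tpm1 and a gene without a symbol also among the first 3. Igf2 was closest to Card10, Ddx59 and U2surp (first r 0.76), and Fstl1 to Pcolce2, Ctps and Angptl2 (first r 0.68). Among the 36 pairs of tested members, r ranged from −0.73 for Mstn with Igf1r to 0.66 for Mstn with Igf2r, with a median of 0.040. The genes of these outermost pairs each had a relation with the first principal component given above. Its part in the r of these pairs was not tested.

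The wider pathways gave no called gene either. Of 87 other genes of the myostatin, bone morphogenetic protein (BMP), IGF and AKT pathways, 67 passed the filter and 0 were called in either direction by edgeR, against 1.92% of all tested genes. At an unadjusted p under 0.05 there were 8, where 15.5% of all tested genes were. DESeq2 called 1, and limma-voom called 0. Of the 67, 30 had a positive and 37 a negative log2 fold change, with a median of −0.019 against 0.0066 over all tested genes.

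In the myostatin and activin arm, 17 of 26 genes were tested, 10 of them positive, with a median log2 fold change of 0.022. Acvr2a, the other type II receptor for myostatin, had 3.86 ± 1.36 CPM in air (SD, n = 11) and 5.08 ± 1.30 in smoke (SD, n = 13), a log2 ratio of 0.39 ± 0.18 (SE, edgeR adjusted p = 0.289), with 11 of 13 smoke samples above the air mean. Ski, a repressor of Smad activity, had a log2 ratio of −0.18 ± 0.083 (SE, edgeR adjusted p = 0.286), and 12 of 13 smoke samples were below the air mean. Among other receptors of the list, the type I receptors Tgfbr1 and Acvr1b had log2 ratios of −0.22 (edgeR adjusted p = 0.298) and 0.31 (adjusted p = 0.364), and the type II receptor Tgfbr2 had 0.13 (adjusted p = 0.789). The receptors thus had ratios of either sign, none of them past the threshold. In the BMP arm, 10 of 14 genes were tested and 8 were negative, with a median of −0.052 and a range from −0.12 to 0.020. The smallest p-values there were those of Smad5 (−0.084, edgeR adjusted p = 0.680) and Bmpr1b (−0.10, adjusted p = 0.758).

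Of the 15 genes of IGF binding, receptors and adaptors, 9 were tested and 6 were negative (median −0.075). Irs2, an adaptor that links the insulin and IGF receptors to PI3K, ranged from 7.42 to 41.2 CPM in air and from 8.34 to 25.8 CPM in smoke, and 11 of 13 smoke samples were below the air mean of 19.3. Its log2 ratio was −0.59 ± 0.23 (SE, edgeR adjusted p = 0.179). Grb10, an adaptor that damps signalling by those receptors, was at 18.4 ± 2.32 CPM in air and 15.1 ± 4.07 in smoke, a log2 ratio of −0.31 ± 0.13 (SE, edgeR adjusted p = 0.213). Igfbp3, the main carrier of IGFs in blood, had 3.62 ± 1.68 CPM in air and 5.47 ± 2.67 in smoke (0.55, SE 0.25, edgeR adjusted p = 0.267). With the first component as a covariate Igfbp3 passed the threshold (0.64, edgeR adjusted p = 0.0384), as did Trim63, described next.

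In the PI3K, AKT, mTOR and FOXO list, 31 of 32 genes were tested, 15 positive and 16 negative, with a median of −0.012. Trim63, a ubiquitin ligase of muscle atrophy, was the gene nearest to the threshold, at 174 ± 39.9 CPM in air and 138 ± 20.8 in smoke. All 13 smoke samples were below the air mean, and the log2 ratio was −0.33 ± 0.095 (SE, edgeR adjusted p = 0.0568). Trim63 was the gene that DESeq2 called (−0.33, adjusted p = 0.0417). It also passed in edgeR when air sample 2, 6 or 11 or smoke sample 7, 8 or 11 was left out (adjusted p = 0.0357, 0.0303, 0.0399, 0.0363, 0.0486 and 0.0486). With no expression filter its adjusted p was 0.0200 (−0.34), and with the first component as a covariate it was 0.0147 (−0.32), both by edgeR. Foxo1, a factor that drives atrophy genes when AKT is inactive, had a log2 ratio of −0.20 ± 0.085 (SE, edgeR adjusted p = 0.232), and the air mean lay above 12 of 13 smoke samples.

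**Figure D4:**
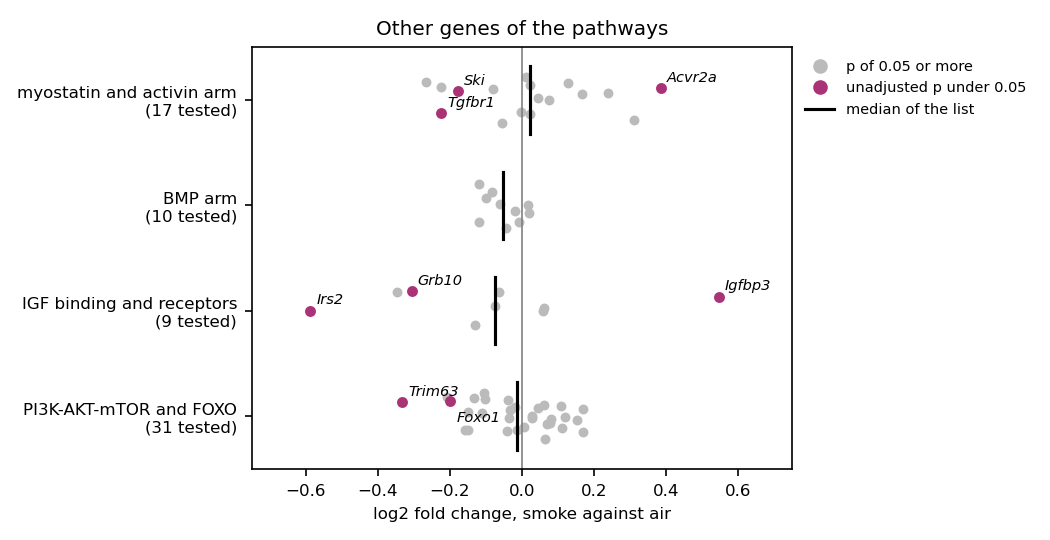
Log2 fold change of smoke against air for 67 tested genes in 4 lists (points), with the median of each list as a vertical bar and genes at an unadjusted p under 0.05 in purple. The medians lie between −0.075 and 0.022, and 0 of the 67 passed after adjustment over all tested genes.

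Markers of some other cell types give part of the setting of these values. Of 5 erythrocyte markers 3 were called lower (Hbb-bs, Hbb-bt and Hba-a2), with sums of 486 to 1444 CPM in air and 369 to 883 in smoke. Summed satellite cell markers were at 1.89 to 8.30 CPM in air and 3.87 to 8.98 in smoke, and summed macrophage markers at 32.1 to 58.4 and 35.3 to 67.4. Of these, 1 of 4 satellite cell markers (Pax7) and 3 of 5 macrophage markers passed the filter, and 0 were called. Myf5 was at 0 counts in 6 of 11 air and 12 of 13 smoke samples, and Adgre1 in 2 samples of each group. Endothelial, adipocyte and tendon markers had 0 called genes among those tested. Their part in the values of Igf1, Acvr2b and the other members was not tested.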

How the data were processed

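Libraries were made from total RNA of frozen plantaris with the Lexogen QuantSeq 3′ FWD kit and read on a HiSeq 4000, per the labels' protocols. The authors deposited raw read counts per Ensembl gene ID, 1 column per sample. The submitters' processing notes name STAR, DESeq2 and the build mm9, with no settings; the annotation, strand setting and use of molecular identifiers are not given in the sources used here, so reads may not be independent molecules and the floor covers counting error only. The file headers number the smoke libraries 229 to 241 and the air libraries 242 to 252 on the sample sheet, all in lane 6, so sheet position and group cannot be told apart.

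Symbols and coordinates came from GENCODE M21 (GRCm38), which held 99.1% of the IDs; it differs from the build named in the notes, so coordinates serve to place genes and were not matched to reads. Promoters came from the RefSeq table of GRCm38.p6, which had entries for 9 of the 10 members.

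Genes were kept by filterByExpr (minimum count 10), scaled by TMM and tested across the genome with edgeR 4.0.16 (glmQLFit, glmQLFTest) in R 4.3.3, all 24 samples, no covariate, Benjamini-Hochberg adjustment over 10159 genes. CPM values are on TMM-scaled libraries, and log2 values for correlations used a prior count of 2. Intervals of 95% used the fold change, its SE and 22 residual degrees of freedom. Permutation tests were two-sided with 100000 resamples (SciPy 1.17.1). The procedure was tested on simulated data. Alternatives used DESeq2 1.42.0, limma 3.58.1 and other scalings, filters, samples and a replicate block; those using the first principal component were added after seeing the data. Of 133 pairs of samples within groups, none agreed within sampling noise (chi-square per gene 2.52 to 18.6), so none were treated as copies of 1 library; this does not show that samples are separate animals.

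The genes named are the 10 members, in each list the 2 genes with the smallest p-value, and for each member the 3 genes most like it by r. Igfbp3, Tgfbr1, Acvr1b and Tgfbr2 were named after their values were seen. The members and lists were chosen with earlier results of these data known. One list of cell type markers is not reported here.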

Additional observations from a re-analysis of the deposited data

How the results depend on the processing

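Of 306 fold changes of members under other scalings, filters, tests, samples and covariates, 301 kept their direction and their side of the threshold. Of the rest, 4 passed it (Igf1 3 times, Acvr2b once) and 1 reversed: Igf2 ranged from −0.0023, without smoke sample 11, to 0.16 when each of the 24 samples was left out in turn. Members called numbered 0 as reported, 1 at an adjusted p under 0.10 (Igf1), and 0 to 1 when samples were left out. Called genes in the other pathway lists numbered 0 as reported, 1 with DESeq2, with no expression filter and at an adjusted p under 0.10 (Trim63 each time), 2 (Trim63 and Igfbp3) with the first component as a covariate, chosen after seeing the data, and 0 to 1 when samples were left out. Over all genes, 195 were called as reported, 323 with DESeq2 (193 of them shared), 413 at an adjusted p under 0.10 and 448 with the component as a covariate (195 shared); apart from the looser threshold, the cause was not tested. Leaving out air sample 3 took the genes called higher from 74 to 47. Of 54 correlations under other settings 6 reversed. Without 2 samples, Igf1 with Igfbp4 had r −0.14 in air and −0.096 in smoke, Igf2 with Igfbp5 had −0.16 and −0.10, and Igfbp4 with Igfbp5 in smoke had 0.19, or 0.052 on CPM; the cause was not tested. Fst, at a few counts per sample, is limited by depth.

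Air and smoke samples share replicate numbers that no label ties to a litter or day. Over 11 same-numbered pairs the deviations from the group means had a mean correlation of −0.0059 (from −0.28 to 0.14), against 0.0011 over 132 other pairs, and 2 of 11 air samples correlated best with their own number. A fit with this block, on 22 samples, called 138 genes, 110 of them shared with the reported fit, and 1 member, Igf1 (log2 ratio 0.42, edgeR adjusted p = 0.0402).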
